A study of Caenorhabditis elegans with 4 samples.

Results

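The regions described here are the TAF-1 binding sites on chromosome III of Caenorhabditis elegans, taken as every peak that the peak list of the whole series places on that chromosome. They number 492 of 2987 peaks in all, or of 2984 on the 6 nuclear chromosomes. The data come from chromatin immunoprecipitation with sequencing (ChIP-seq) on embryos of mixed stages from the wild-type N2 strain, kept at 20 °C and labelled as a mixed population of males and hermaphrodites. Protein was cross-linked to DNA with 2% formaldehyde, and TAF-1 was pulled down with an affinity-purified rabbit polyclonal antibody. Of the 4 libraries, 2 are TAF-1 ChIP replicates, each with its own peak list, and 2 are input DNA, which was not analysed here. Nothing in the labels says that the replicates were grown separately, so their agreement may be technical.

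TAF-1 is a scaffold subunit of TFIID, the complex that recognises core promoters and from which the transcription machinery of RNA polymerase II is assembled. TFIID sits at the start of many genes at once, so its peaks are used to mark promoters. In C. elegans this is of particular use, because trans-splicing removes the original 5′ end of many transcripts, and because genes in operons share an upstream promoter. Peaks here carry coordinates on WormBase WS220. No genome or gene annotation of that build was used, so no peak is assigned to a gene and no sequence is shown.

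Each peak has a position and the score its caller gave it, both as the authors deposited them. The file headers do not say what the score measures, and the series list and the replicate lists use different scales. Scores therefore rank peaks within a list. Replicate scores stop at 3100 on chromosome III, a value reached by 5 replicate 1 peaks and 13 replicate 2 peaks. Replicate 2 scores stop there on the other chromosomes too, but replicate 1 scores reach 3168.93 on I and 3171.99 on IV. The lists hold no read counts, so the depth is unknown. The 95% intervals below cover only the counting of peaks and treat neighbours as independent, which they may not be.

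Chromosome III was rich in TAF-1 peaks. Its 492 series peaks on a span of 13.8 Mb came to 35.7 per Mb (32.6 to 39.0), against 32.9 on I, 27.6 on II, 27.95 on IV, 21.3 on V and 36.2 on X. The density was 1.33 times that of the other 4 autosomes together (1.20 to 1.46, two-sided exact binomial test, adjusted p = 3.2e-07 over 5 tests). Taken one by one, the ratio was 1.67 (1.47 to 1.91) to V, 1.29 (1.13 to 1.48) to II and 1.28 (1.12 to 1.45) to IV. These passed the exact binomial test after adjustment over 12 comparisons (adjusted p = 4.9e-14, 0.00031 and 0.00035). The ratio to I was 1.08 (0.96 to 1.23, exact binomial adjusted p = 0.30), so no difference from I was shown. Of these, the difference from V alone also passed in the replicate lists, at 1.46 in replicate 1 and 1.48 in replicate 2 (exact binomial adjusted p = 3.2e-05 and 1.2e-05). There, the ratio was 1.15 and 1.01 to II, 1.13 and 1.06 to IV, and 0.98 and 0.91 to I, with exact binomial adjusted p between 0.19 and 0.90. With the 6 chromosomes themselves as the units, an exact permutation test cannot give a p below 0.167.

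The size of the ratio depended on which sites were counted. It was 1.48 (1.29 to 1.70) for the bottom 50% of all series peaks by score and 1.18 (1.01 to 1.36, exact binomial p = 0.032) for the top 50%, and the difference between these groups was not tested. Among series peaks found in both replicates the ratio was 1.16 (0.98 to 1.37, exact binomial p = 0.081), which did not pass the test. Among the 314 peaks not found in both it was 1.44 (1.27 to 1.64). In the replicate lists, 279 replicate 1 peaks stood at 1.17 (1.03 to 1.34, exact binomial p = 0.017), while 294 replicate 2 peaks stood at 1.10 (0.97 to 1.25, exact binomial p = 0.13). The density excess of III over the other autosomes is thus not shown for replicate 2 alone or for sites that both replicates hold.

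**Figure D1:**
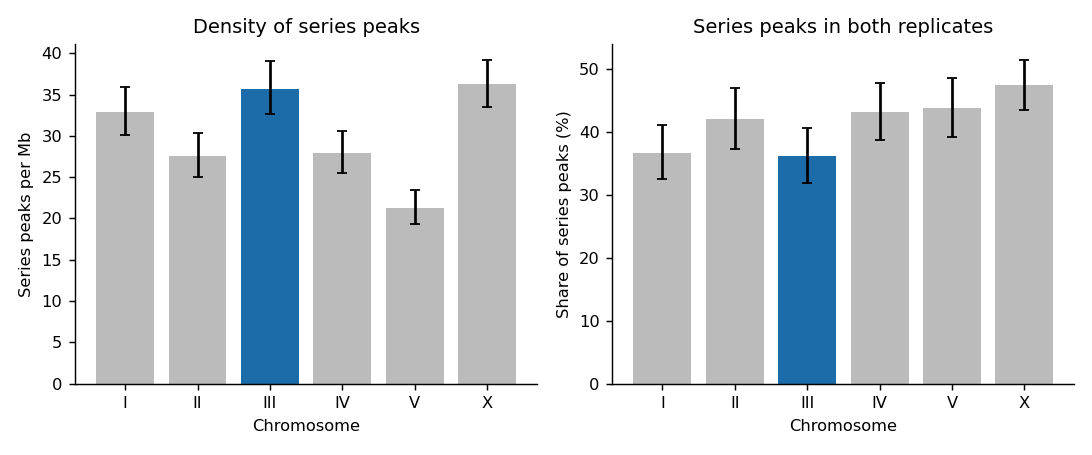
Series peaks per Mb (left, exact Poisson 95% intervals) and the share of series peaks that overlap a peak in both replicates (right, exact Clopper-Pearson 95% intervals) on each nuclear chromosome, with III in blue. III stands at 35.7 peaks per Mb, close to X at 36.2, while its share found in both replicates, 36.2%, is the lowest of the 6 beside 36.7% on I.

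Fewer of the peaks on III were found in both replicates than elsewhere. Counting any overlap of at least 1 bp, 178 of 492 peaks (36.2%, 31.9 to 40.6%) overlapped a peak in each replicate, against a background of 42.9% on the 5 other nuclear chromosomes (two-sided Boschloo exact test, adjusted p = 0.014). Against the other 4 autosomes, at 41.3%, the exact p was 0.038 without adjustment. Another 78 peaks (15.9%) overlapped replicate 1 only, with a background of 17.1%. A further 67 (13.6%) overlapped replicate 2 only, with a background of 12.1%. The remaining 169 (34.3%, 30.2 to 38.7%) overlapped neither, with a background of 27.9%. In all, 256 peaks (52.0%) overlapped replicate 1, with a background of 60.0%, and 245 (49.8%) overlapped replicate 2, with a background of 55.0%. Chromosome I had a like share in both replicates, 36.7% (32.4 to 41.1%), so the low share is not particular to III.

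The replicates themselves overlapped on III to about the extent seen elsewhere. Among the 279 peaks of replicate 1, 186 (66.7%, 60.8 to 72.2%) met one of replicate 2, against a background of 67.7%. Among the 294 peaks of replicate 2, 159 (54.1%, 48.2 to 59.9%) met one of replicate 1, the same as the background of 54.1%. Over these 159 one-to-one pairs the scores had a Spearman's rho of 0.726, and 0.647 over the 146 pairs below 3100 in both. On the other 5 chromosomes the values were 0.747 and 0.663. These correlations are across peaks of the same pair of libraries and are given as descriptions.

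Score and support went together. Among the 123 highest-scoring series peaks of III, with scores from 14.58 to 157.22, 91 (74.0%, 65.3 to 81.5%) were found in both replicates and 2 in neither. The next 123, from 7.71 to 14.55, had 30.1% in both. The 2 lower groups of 123 had 18.7% and 22.0%. Peaks found in both had a median score of 14.8 (quartiles 7.003 and 29.3) and a median width of 336.5 bp. Those in replicate 1 only had a median score of 11.3 and a width of 237 bp, and those in replicate 2 only had 5.30 and 213 bp. Peaks in neither had a median score of 5.64 and a width of 184 bp. On the other 5 chromosomes the median scores, in the same order of groups, were 18.49, 9.74, 5.665 and 5.275. The median widths there were 346, 228, 202.5 and 180 bp, so the relation is not particular to III. Scores of 20 or more were reached by 79 peaks on III (16.1%, with a background of 22.6%). None of these was absent from both replicates, and 71 of them were found in both.

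**Figure D2:**
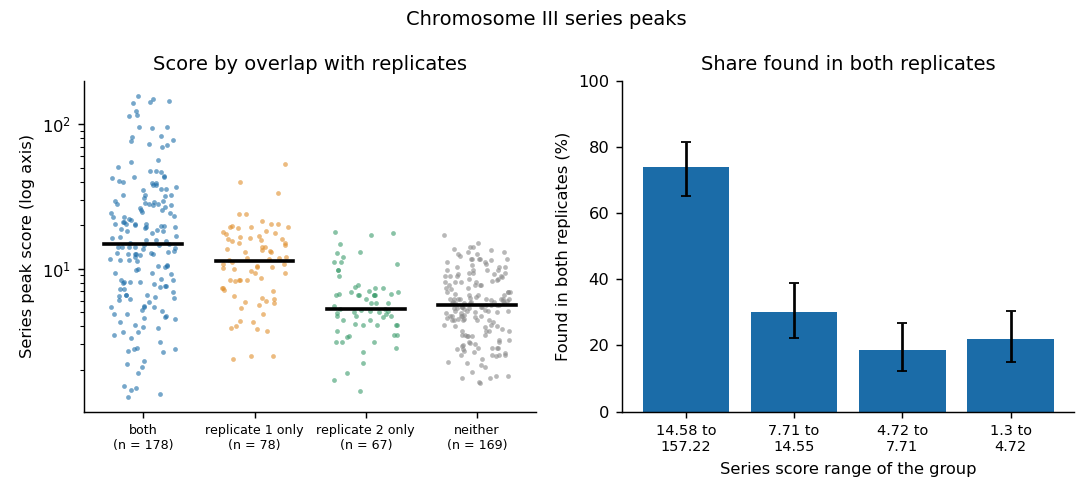
Left, score of each chromosome III series peak (log axis) by its overlap with the replicate lists, with the median as a black line. Right, share found in both replicates for 4 equal groups of peaks by score, with exact 95% intervals. The share is 74.0% in the highest group and between 18.7% and 30.1% in the others.

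High scores were less common on III than peaks were. Chromosome III held 16.5% of nuclear series peaks but 11 of the 100 highest-scoring ones and 57 of the top 500 (11.4%). Its median score was 7.71 (quartiles 4.72 and 14.6), against 8.64 (4.85 and 18.4) on the 5 other chromosomes. Scores of 50 or more were reached by 22 peaks (4.47%) on III and by 7.83% of peaks elsewhere. These shares are descriptions, since no test of scores between chromosomes was made.

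Each of the 10 strongest sites of III overlapped a peak in both replicates. The first spanned 646 bp (9053574 to 9054219) and ranked 8th in the genome with a score of 157.22. Its replicate 1 peak was 805 bp wide and scored 2794.04, and its replicate 2 peak was 2511 bp wide and scored 3100. The second lay near the right end (13446769 to 13447847, 1079 bp), scored 150.14 and was at 3100 in both replicates. Only 3 of the 10 sites stood at 3100 in replicate 1, and 6 of them did so in replicate 2.

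The third site (6133183 to 6133859) scored 146.32, with 3034.55 in replicate 1 and 3100 in replicate 2. The fourth (3897014 to 3897779) scored 143.71 and was at 3100 in both replicates. They were 677 and 766 bp wide. The fifth was narrower, at 449 bp (8446757 to 8447205), and had a series score of 140.3 with more moderate replicate scores of 1206.43 and 887.52. In replicate 2 this site lay inside a 3425-bp peak whose midpoint was 1053 bp to the left.

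The sixth site (13067989 to 13068694) scored 123.26 in the series list, 2036.97 in replicate 1 and 3100 in replicate 2. The seventh (424533 to 426426) scored 116.8 and was at 3100 in both replicates. At 1894 bp it was by far the widest of the 10. The eighth (1618753 to 1619384) scored 113.99, with 725.37 in replicate 1 and 1210.59 in replicate 2. The ninth (8344147 to 8344702, score 96.42) scored 621.85 in replicate 1 and 1168.11 in replicate 2. The last of the 10 (3867387 to 3867679, score 95.45) scored 601.5 and 1320.5. The order of the sites thus differed between lists, and the ceiling hides the order of the strongest sites in replicate 2.

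Width and score did not measure the same thing. Series peaks on III were narrow, with a median of 230 bp (quartiles 182 and 311.5 bp) against 244 bp on the other chromosomes. Spearman's rho of score and width was 0.492 over the 492 peaks, against 0.566 on the other chromosomes, as descriptions across peaks. On III, 7 peaks (1.42%) were 1 kb wide or more, against 2.49% of peaks elsewhere. These 7 covered 10.5% of all bases under series peaks on III, and all 7 overlapped a replicate 2 peak at 3100.

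Some of these wide sites ranked much lower in the series list than in the replicate lists. The widest was a 4783-bp peak at 2497135 to 2501917, which scored 12.77 in the series list (rank 149 on III). The same site was a 6000-bp peak in replicate 1 and a 6676-bp peak in replicate 2, both at 3100. The second widest spanned 2746 bp (3334279 to 3337024) and scored 28.34, with 1446.48 in replicate 1 and 3100 in replicate 2. The third spanned 2133 bp (7444341 to 7446473) and scored 9.81, with 2017.51 in replicate 1 and 3100 in replicate 2. In all, 22 series peaks, wide or narrow, overlapped the 13 replicate 2 peaks at 3100, and 12 of the 22 had a series score under 20. Some of these 12 were narrow peaks beside a stronger site under the same replicate 2 peak. An example is the 163-bp peak at 427700 to 427862 (score 1.35), near the seventh strongest site. The same count was not made on the other chromosomes. In the plot of series against replicate scores the 22 peaks form a row of points along the ceiling.

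**Figure D3:**
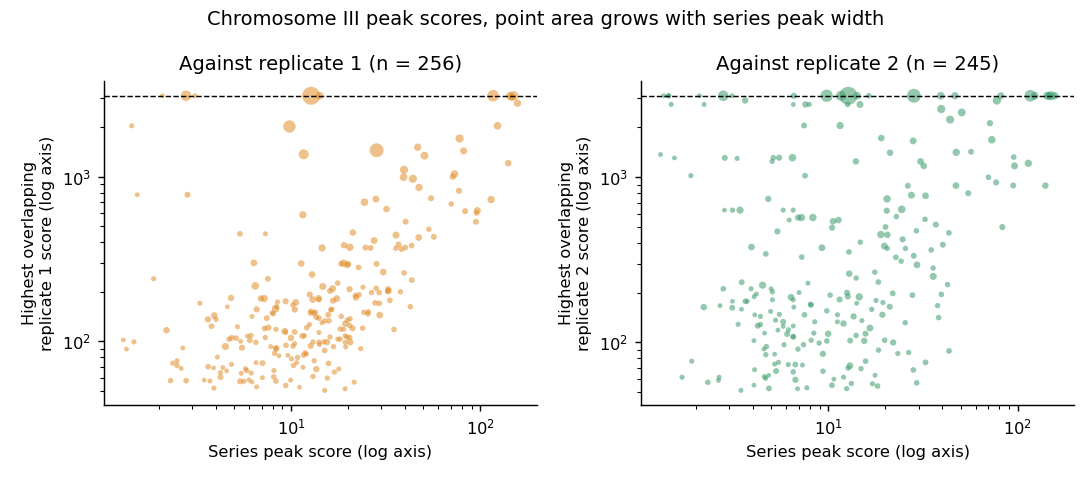
Series score of each chromosome III peak against the highest score of any overlapping replicate 1 peak (left, n = 256) or replicate 2 peak (right, n = 245), on log axes, with point area growing with series peak width and the dashed line at 3100. The widest peak, at a series score of 12.77, lies on the line in both panels.

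The position of a site was closer between the series list and replicate 1 than between the series list and replicate 2. Over 246 one-to-one pairs the replicate 1 midpoint lay a median of 27 bp from the series midpoint (quartiles 13.6 and 55 bp), and 87.4% of pairs were within 100 bp. Over 198 pairs the replicate 2 midpoint lay a median of 74.5 bp away (25.1 and 255 bp), and 58.1% were within 100 bp. Replicate 1 peaks were a median of 1.36 times as wide as their series partner, and replicate 2 peaks 3.82 times. Median widths on III were 430 bp in replicate 1 and 1140 bp in replicate 2. The part of width in these distances was not tested.

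No uneven spread of series peaks between the left, central and right parts of the chromosome was shown. The span was divided into left, central and right parts of 33.3% each. The centre, known in C. elegans autosomes for conserved and widely expressed genes, held 158 of 492 peaks (32.1%, 28.005 to 36.4%, two-sided exact binomial adjusted p = 0.83). The left part held 165 and the right part 169, a left share of 49.4% of the outer peaks (43.9 to 54.9%, exact binomial adjusted p = 0.87). Neither departure from an even spread passed the test. The median score was 9.38 in the centre, 8.18 on the left and 6.47 on the right, and 39.9% of central peaks were found in both replicates, against 33.9% and 34.9%.

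The peaks that only a single replicate held had other shares in these parts. Of the 78 series peaks in replicate 1 only, 33 (42.3%, 31.2 to 54.0%) lay in the centre and 15 (19.2%, 11.2 to 29.7%) on the right. Of the 67 in replicate 2 only, 12 (17.9%, 9.61 to 29.2%) lay in the centre and 35 (52.2%, 39.7 to 64.6%) on the right. Of these 35, 9 lay in the window from 13500001 to 13600000, where 5 were under a single replicate 2 peak (13589241 to 13592802). The interval counts them as separate sites. The other chromosomes were not divided in this way. In the replicate lists themselves, 19 of 93 replicate 1 peaks without a replicate 2 partner lay on the right (20.4%, 12.8 to 30.1%), against 66 of 135 replicate 2 peaks without a replicate 1 partner (48.9%, 40.2 to 57.6%). Peaks shared by the replicates were within 30.6% to 35.5% in each part by replicate 1 positions. By replicate 2 positions they were 29.6% on the left, 38.4% in the centre and 32.1% on the right. The difference between the replicates was seen in the data first and was not tested.

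**Figure D4:**
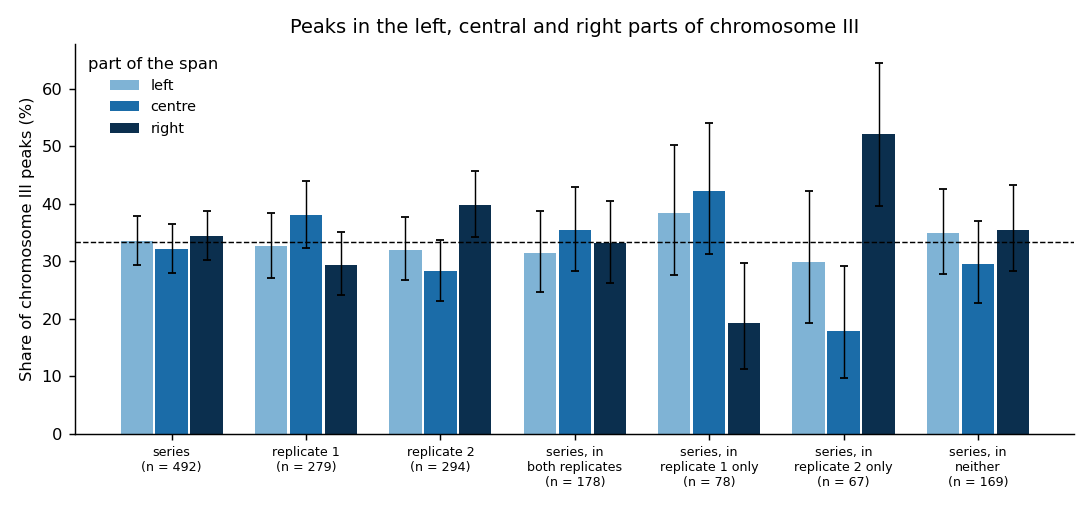
Share of chromosome III peaks in the left, central and right parts of the span for each list and for each overlap class of the series list, with exact 95% intervals and the dashed line at 33.3%. The series list stays between 32.1% and 34.3% in each part, while peaks in replicate 2 only reach 52.2% on the right and peaks in replicate 1 only 19.2%.

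Among full bins of 1 Mb, the number of series peaks ran from 24 in the third from the left end to 47 in the first. The last bin, of 0.78 Mb, was denser than either, with 46 series peaks or 58.8 per Mb, 20 replicate 1 peaks and 31 replicate 2 peaks. Support was highest in the sixth Mb, where 18 of 33 series peaks were found in both replicates (54.5%), and lowest in the fourth, with 7 of 35 (20.0%).

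On a finer scale, some 100-kb windows were dense and others empty. The 138 windows held a median of 3 series peaks (quartiles 2 and 5), against 2 (1 and 4) on the other chromosomes together. The median was also 3 on I and on X. On III, 9 windows (6.52%) were empty, against 12.7% elsewhere, and 7 of the 9 had no peak in either replicate list. The share of empty windows was 3.95% on X and 22.0% on V. At the other end, 15 windows (10.9%, against 7.63% elsewhere) held 7 peaks or more, together 127 peaks or 25.8% of the total. Windows with 7 peaks or more made up 12.4% on X and 2.87% on V. In these 15 windows of III 44.1% of peaks were found in both replicates, against 33.4% in the rest. These shares were not computed on the other chromosomes, and their difference was not tested. Peaks were not more concentrated in dense windows on III. Its 14 densest windows held 24.4% of its peaks, and the 87 densest windows elsewhere held 27.4% of theirs. Window counts of the series list had a Spearman's rho of 0.715 with replicate 1 counts and 0.677 with replicate 2 counts over the 138 windows, and replicate 1 and replicate 2 counts had one of 0.582.

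**Figure D5:**
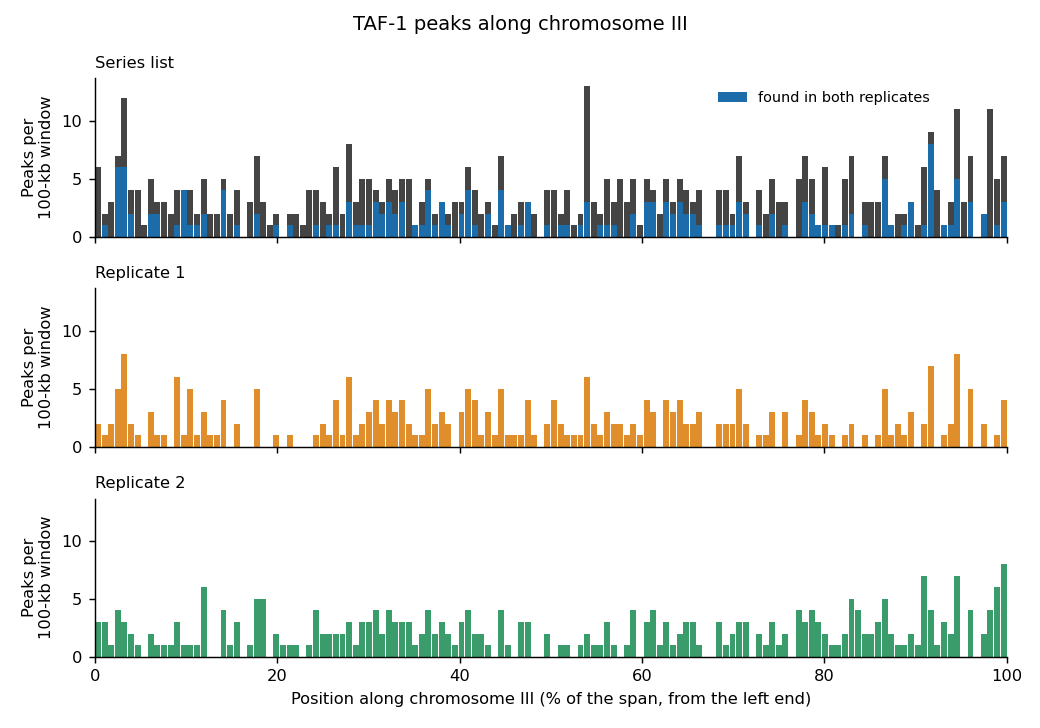
Peaks per 100-kb window along chromosome III in the series list (blue, the part found in both replicates), in replicate 1 and in replicate 2, with position as a percentage of the span. The 4 tallest series windows hold 13, 12, 11 and 11 peaks, and the last of these, near the right end, has no replicate 1 peak.

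The densest window was made of weak peaks for the most part. From 7400001 to 7500000 it held 13 series peaks, with scores from 1.62 to 12.74 and a median of 6.15. Of these, 7 were in neither replicate, 3 in replicate 1 only and 3 in both. Replicate 1 had 6 peaks in the window and replicate 2 had 2. The 3 supported by both were the 2133-bp peak at 7444341 to 7446473, its neighbour at 7446753 to 7448079 (score 11.67) and a 260-bp peak at 7498323 to 7498582 (score 12.74).

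The first pair was covered in replicate 2 by a single 5393-bp peak (7443849 to 7449241) at 3100. In replicate 1 they were separate peaks with scores of 2017.51 and 1365.84. A further 4 peaks of the window stood in a row between 7431128 and 7432668, with scores from 2.37 to 8.36. This row holds the closest neighbours on III, 45 bp apart (ending at 7431985 and starting at 7432031). None of the 4 overlapped replicate 2, and 3 of them overlapped replicate 1 peaks that scored 90.44 and 73.55. The remaining 6 peaks of the window were single sites of 162 to 295 bp with scores from 1.62 to 6.66, all in neither replicate.

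The other dense windows differed in their support. From 400001 to 500000, 12 peaks held the seventh strongest site and 5 others in both replicates. All 12 lay within 37.3 kb. From 13000001 to 13100000, 11 peaks held the sixth strongest site, and 5 of them were found in both. From 13500001 to 13600000 there were also 11 peaks, but none overlapped replicate 1, 9 overlapped replicate 2 only, and the highest score was 8.95. From 12600001 to 12700000, both replicates held 8 of 9 peaks, with scores from 1.48 to 50.71.

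Long stretches without a series peak were a minority. Distances over 100 kb made up 7.64% of those between neighbouring series peaks on the other 5 chromosomes, with 3.75% on X and 13.3% on V. On III they numbered 20 (4.07%). The longest ran for 274 kb from 9133819 to 9408281 and had no peak in any of the 3 lists. The next, of 198 kb from 11481760 to 11680106, had no replicate 1 peak, but 5 replicate 2 peaks lay wholly inside it, with scores from 55.41 to 158.43. The third ran for 163 kb from 10461391 to 10624531. It held 1 replicate 2 peak wholly inside, with a score of 50.46, and no replicate 1 peak wholly inside. The first series peak of the chromosome lay at 25689 to 25904 with a score of 5.52, in replicate 2 only. The last lay at 13777289 to 13777555 with a score of 8.77, in neither.

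Neighbouring peaks on III were a median of 16.8 kb apart, and a minority formed close pairs. Of 491 distances between neighbours, 65 (13.2%, 10.4 to 16.6%) were at most 1 kb, against a background of 14.0% (Boschloo exact test, adjusted p = 0.83). These close neighbours involved 109 peaks in 34 pairs, 3 groups of 3 and 7 groups of 4 or more. The median distance within close neighbours was 262 bp (quartiles 156 and 619 bp). The median score was 6.54 in such groups and 8.38 for isolated peaks, while the other 5 chromosomes had 8.215 and 8.7. On III, 71.6% of the grouped peaks overlapped replicate 2, against 43.6% of the isolated ones. The other 5 chromosomes had 72.1% and 49.8%. For replicate 1 the shares were 58.7% and 50.1% on III, and 67.2% and 57.7% on the other 5 chromosomes. In 42 of the 65 cases a single replicate 2 peak covered both neighbours, which a single replicate 1 peak did in 12.

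High-scoring peaks on III were seldom close neighbours of each other. Distances from them to lower-scoring peaks were not counted here. Within the top 50% of series peaks by score, 9 of 224 distances on III (4.02%, 1.85 to 7.49%) were at most 1 kb, against 9.49% on the other chromosomes (Boschloo exact p = 0.0049, not adjusted). Against the other 4 autosomes, at 10.6%, the exact p was 0.0013, which was computed after the data were seen. No 2 of the 79 peaks that scored 20 or more lay within 1 kb of each other. Their smallest distance was 1.55 kb. Every close group thus held at most 1 peak with a score of 20 or more. Peaks that scored 20 or more were not counted in this way on the other chromosomes, so this is not shown to be particular to III.

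The largest group held 7 series peaks in 4652 bp (12612338 to 12616989), with scores from 1.48 to 14.71, and 6 of them were found in both replicates. A single 5426-bp replicate 2 peak with a score of 2747.48 overlapped all 7. A group of 5 peaks in 2847 bp (13590018 to 13592864) scored at most 6.53, and none of its members overlapped replicate 1. A group of 4 at 1300009 to 1303007 scored at most 14.18 in the series list. There, a single 3509-bp replicate 1 peak and a single 4324-bp replicate 2 peak, both at 3100, each overlapped all 4.

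Among close pairs, the highest summed scores came from a strong peak with a weak partner. The fourth strongest site had a 233-bp neighbour that scored 1.43, 972 bp to its left (3895809 to 3896041), which replicate 2 covered and replicate 1 did not. The sixth had a 201-bp neighbour that scored 1.44, 63 bp to its left (13067725 to 13067925). The seventh had a 396-bp neighbour that scored 6.58, 207 bp to its right (426634 to 427029). The other closest neighbours were 57 bp apart (ending at 1601765 and starting at 1601823), under a single replicate 2 peak, and 58 bp apart (ending at 1017682 and starting at 1017741), under a single replicate 1 peak.

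Some sites were in a replicate list and not in the series list, or the reverse. Of the 186 replicate 1 peaks on III shared with replicate 2, 16 (8.60%) had no series peak. This share was not computed for the other chromosomes. The median replicate 1 score of the 16 was 80.9, against 173 for the others. For some of them the replicate 2 peak did overlap a series peak, as at 1261256 to 1261634 and at 9764615 to 9765059. The strongest of the 16 spanned 5512 bp (5353039 to 5358550) with a replicate 1 score of 1413.98, rank 14 on III in that list. Its replicate 2 peak spanned 6326 bp and scored 334.76, and the nearest series peak was 44.5 kb away. The next were at 2470631 to 2471303 (137.25 in replicate 1 and 370.16 in replicate 2), with a series peak 0.576 kb away that the replicate 2 peak also overlapped, and at the left end, at 1 to 228 (134.3 and 398.23).

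In the other direction, the series peaks that neither replicate held were weak and narrow. The highest-scoring ones were at 86417 to 86585 with a score of 17.12, at 2418225 to 2418461 with 15.06, and at 3456304 to 3456482 and 9849068 to 9849267, tied at 14.04. The first 3 were 169, 237 and 179 bp wide. The strongest of them ranked 101 on III. A peak that a list lacks does not show that TAF-1 was absent there, since the depth is unknown.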

How the data were processed

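ChIP-seq peak lists of 2 TAF-1 ChIP replicates and of the whole series were used. Reads were aligned with BWA and the ce10 build is named, per the submitters' processing notes. Coordinates are on WormBase WS220 per the file headers, and the lists name their caller as MACS (replicates) or MACS v2 (series). The score of each peak is as the authors deposited it. No source used here gives the cutoffs, the use of input or any pooling of reads for the series list.

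Chromosome lengths were taken as the last base under a peak of any list (III: 13782867). Peaks were shared when they overlapped by 1 bp or more, and each was placed in a window or part by its midpoint. Densities were compared by two-sided exact binomial tests and shares by two-sided Boschloo exact tests, with a Benjamini-Hochberg adjustment over the 5 main tests. These tests count peaks as independent. The functions were tested on simulated data. Alternatives changed the list, score range, overlap rule, windows and chromosomes compared. The named sites are the 10 highest scores, the 3 widest peaks, the densest window, the 3 longest distances, the 3 closest and 3 highest-scoring close pairs, the 3 strongest peaks missing from the replicates or from the series list, and the end peaks. Other sites, windows and groups were named after their values were seen. Members and tests were chosen with earlier results of these data known. Tests were run with scipy 1.17.1 in Python 3.11.15, tables were handled with pandas 2.3.3 and numpy 2.4.6, and figures were drawn with matplotlib 3.10.9.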

Additional observations from a re-analysis of the deposited data

How the results depend on the processing

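The density ratio of III to the other autosomes, 1.33, kept its direction in all 9 alternatives. It no longer passed the threshold in replicate 2 (1.10, exact binomial p = 0.13) or among series peaks found in both replicates (1.16, exact binomial p = 0.081). The share found in both replicates stayed below the background in all 6 alternatives. It no longer passed with a 50% reciprocal overlap (1.63% against 2.97%, Boschloo exact p = 0.11), which only 8 of 492 peaks on III met. Replicate 2 peaks on III were a median of 3.82 times as wide as their series partner, and the part of width here was not tested. Leaving out a replicate gave 49.8% to 52.0%. The share of peaks in the centre, 32.1%, was above 33.3% in replicate 1 (38.0%), in the top 50% by score (36.4%), among peaks found in both (35.4%) and with peaks within 10 kb counted once (33.7%). The left share of outer peaks, 49.4%, turned to 52.6% in replicate 1 and 56.6% in the top 50% by score. None of these passed the threshold, and the cause of the shifts was not tested. The share of neighbours within 1 kb, 13.2%, lay above its background in replicate 1 (11.9% against 11.01%), among peaks found in both (14.1% against 13.7%), in the bottom 50% by score (12.8% against 10.0%) and by midpoints (10.2% against 10.1%). It passed the threshold below the background in the top 50% by score (4.02%, also against the other 4 autosomes, and 1.79% by midpoints). The densest window depended on the list. The highest count of any window was 13 in the series list (from 7400001), 8 in replicate 1 (from 400001, tied with another window), 8 in replicate 2 (from 13700001), 8 among peaks found in both (from 12600001) and 6 in the top 50% by score (from 13000001), all lists with fewer peaks. With 200-kb windows the highest count was 16 and with windows shifted by 50 kb it was 13, each in 2 windows, the first of them from 400001 and from 12550001. Replicate overlap of 66.7% moved to 13.6% with a 50% reciprocal overlap, to 34.1% with midpoints within 100 bp and to 54.1% from the side of replicate 2. No paired analysis was possible because only the ChIP libraries have peak lists here. The bottom 50%, the peaks not found in both, and the combined alternatives on close neighbours were chosen after seeing the data. Depth is unknown and limits every statement on a missing peak.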
